A study of Mus musculus with 8 samples.

Results

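Ctla2a and Ctla2b, a pair of small inhibitors of cysteine proteases, were examined together with 6 cysteine cathepsins (Ctsl, Ctsb, Ctss, Ctsc, Ctsh and Ctsz) and 2 cystatins (Cst3 and Cstb) in mouse Ly-6C-high monocytes of spleen and blood. The members were every array probe that the scanner files name after one of these 10 genes, which gave 13 probes of the 41174 on the array, or 10 of its 27962 gene names. Ctsb, Ctsz and Cstb had 2 probes each, and the other 7 genes had 1. All 13 probes were among the 25471 that passed the filter on dim probes. The genes were chosen by the same spleen and blood values that are given here, with the Ctla2 pair picked for its difference between the tissues. Their levels and differences are therefore given as a description, with intervals and without a test.

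The samples came from C57BL/6 mice, an inbred strain, which were female, 8 to 12 weeks old, fed chow, healthy and untreated. Cells were sorted by flow cytometry as high for CD11b and Ly-6C, low for the granulocyte antigen Ly-6G, for T, B and NK cell antigens, and for I-Ab, CD11c and a macrophage antigen. There were 4 spleen samples and 4 blood samples, each of 1000 cells, taken from a group of 4 mice, and no label says whether an equal number means the same mouse, so the tissues were compared unpaired. RNA with an integrity number of at least 8 was amplified from 5 ng and labelled with Cy3 for 1-colour arrays. In such bulk samples, fewer cells of a type and less RNA per cell cannot be told apart. The p-values given for genes outside the members reflect sample-to-sample spread, which may be technical.

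Cysteine cathepsins are papain-like proteases made as inactive proenzymes, with a propeptide that blocks the active site until it is removed in the lysosome. In phagocytes they degrade ingested protein, trim the class II invariant chain and activate other enzymes. The Ctla2 proteins of mice resemble the propeptide of cathepsin L without a protease attached, and Ctla2a inhibits cathepsin L. Both genes were first found in activated mouse T cells and mast cells. Cystatins are a separate inhibitor family that binds the same proteases, Cst3 outside the cell and Cstb in the cytosol.

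The probe sequences of both Ctla2 genes are shown because they share a stretch, printed in capitals, which bears on whether the 2 readings are separate. Probe positions are on the mouse build mm7 as the scanner files give them, and exon or untranslated region annotation of that build was not used here.
Ctla2a probe, chr13:60042051-60042110, minus strand: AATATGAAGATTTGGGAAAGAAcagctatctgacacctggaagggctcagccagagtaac
Ctla2b probe, chr13:60003833-60003892, minus strand: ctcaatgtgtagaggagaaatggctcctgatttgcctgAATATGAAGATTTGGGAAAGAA
The shared run was 22 of 60 bases, at positions 1 to 22 of the Ctla2a probe and 39 to 60 of the Ctla2b probe, counted from the 5′ end. No other probe among the 41174 shared a run of 20 or more bases with either of them. The longest run that either shared with a cathepsin or cystatin probe was 11 bases. The 2 probes lie 38158 bp apart on chromosome 13. How far each reads only its own transcript was not tested, so the Ctla2a and Ctla2b values may not be fully separate measurements.

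The promoters of the 2 genes are shown because their transcripts had a like pattern across the samples. In RefSeq's mouse promoter table (build GRCm38.p6), 7 of the 10 genes were found, with 8 windows of 300 bases around a gene start. Capitals mark bases that are identical in a local alignment of these 2 windows.
Ctla2a promoter, chr13:60936576-60936875, minus strand: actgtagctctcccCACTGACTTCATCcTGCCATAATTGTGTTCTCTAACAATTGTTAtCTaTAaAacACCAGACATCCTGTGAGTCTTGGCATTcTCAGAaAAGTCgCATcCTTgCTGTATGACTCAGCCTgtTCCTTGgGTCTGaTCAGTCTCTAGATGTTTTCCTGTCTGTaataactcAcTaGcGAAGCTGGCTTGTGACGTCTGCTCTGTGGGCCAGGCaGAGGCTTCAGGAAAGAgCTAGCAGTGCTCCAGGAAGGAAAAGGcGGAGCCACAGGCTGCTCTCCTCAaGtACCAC
Ctla2b promoter, chr13:60897398-60897697, minus strand: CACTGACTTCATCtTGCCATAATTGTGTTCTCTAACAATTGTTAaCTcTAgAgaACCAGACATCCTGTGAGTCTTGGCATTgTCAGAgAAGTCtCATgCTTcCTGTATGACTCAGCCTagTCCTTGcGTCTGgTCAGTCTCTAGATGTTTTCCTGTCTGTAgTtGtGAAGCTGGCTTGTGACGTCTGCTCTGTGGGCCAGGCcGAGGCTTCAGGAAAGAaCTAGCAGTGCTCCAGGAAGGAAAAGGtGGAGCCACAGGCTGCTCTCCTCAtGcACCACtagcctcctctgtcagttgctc
The alignment held 278 positions with a base in both windows, of which 255 were identical (91.7%), and 8 further positions were gaps. The longest run common to both windows was 36 bases. Letters of 5 factors were searched on both strands of each window: AGATAA for GATA factors, GAGGAA for PU.1, TCACGTGA for the CLEAR element of lysosomal genes, TGTGGT for RUNX factors and TATAAA for a TATA box. The printed Ctla2a window held 1 AGATAA and 1 TATAAA match, which overlap by 1 base, and the Ctla2b window held none of the 5. The table's other window for Ctla2a (chr13:60936517-60936816, minus strand) held the TATA box letters and no GATA letters. AGATAA occurred in 11.2% of all 32851 windows of the table and TATAAA in 13.6%. Among the other members, Ctsz held AGATAA, Ctss held TATAAA, and Cst3, Ctsc and Ctss held GAGGAA, which 28.3% of all windows hold. No member window held TCACGTGA, present in 0.974% of all windows, or TGTGGT, present in 16.8%. These matches describe the letters of the windows and say nothing of binding.

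Values are on the log2 scale of the authors' table, in which every array has a median near 7.31. A value of 6.8 was taken as the background level, since from there up at least 95% of probes in each step of 0.1 were well above background in the arrays that could be checked. In 3 blood samples (1, 2 and 3) the scanner file was not the array behind the table's column, with rank correlations of 0.842, 0.852 and 0.872, while blood 4 and the 4 spleen files matched their columns. Values below are from the table except where scanner files are named. All 13 member probes were well above background on 8 of 8 scanner arrays and none was saturated. Of the 104 member values, 7 were empty in the table, and each such sample is left out for that probe alone. Between 26539 and 29571 probes were well above background in the 5 matching arrays, and the small number of arrays limits the precision. In the monocyte marker list, 8 of 10 genes passed the filter, with Ccr2 and Csf1r the brightest of those that passed, while Lyz2 and F13a1 were bright but had too few values.

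Ctla2a and Ctla2b were lower in every spleen sample than in any blood sample. Ctla2a read 7.83, 7.69, 7.96 and 7.81 in spleen samples 1 to 4, against 9.52, 11.24, 10.09 and 10.80 in blood samples 1 to 4. The spleen readings lay within 0.27 of each other and the blood readings spread over 1.72, with a gap of 1.57 between the groups. Ctla2a averaged 7.82 ± 0.11 in spleen and 10.41 ± 0.76 in blood (SD, n = 4 each). The difference, spleen minus blood, was -2.59 ± 0.35 (SE, 95% interval -3.38 to -1.80), a 6.02-fold lower level in spleen with an interval of 3.48 to 10.42. The spleen samples thus lay close together, and the blood samples varied.

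Ctla2b, the close relative of Ctla2a, read 7.33, 7.25, 7.30 and 7.28 in spleen samples 1 to 4, against 9.01, 10.02, 9.45 and 9.64 in blood samples 1 to 4. Its spleen readings were above the background level of 6.8 but dim, and the gap to the lowest blood reading was 1.68. Ctla2b averaged 7.29 ± 0.03 in spleen and 9.53 ± 0.42 in blood (SD, n = 4 each). The difference was -2.24 ± 0.25 (SE, 95% interval -2.79 to -1.69), a 4.73-fold lower level in spleen with an interval of 3.22 to 6.93. In blood, both genes had their highest reading in blood 2 and their lowest in blood 1. Among the 25471 probes, the differences of Ctla2a and Ctla2b ranked 2 and 3 from the lowest. The lowest was that of Pf4, a platelet gene whose readings are given below. Those ranks belong to the contrast that chose the Ctla2 genes.

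**Figure D1:**
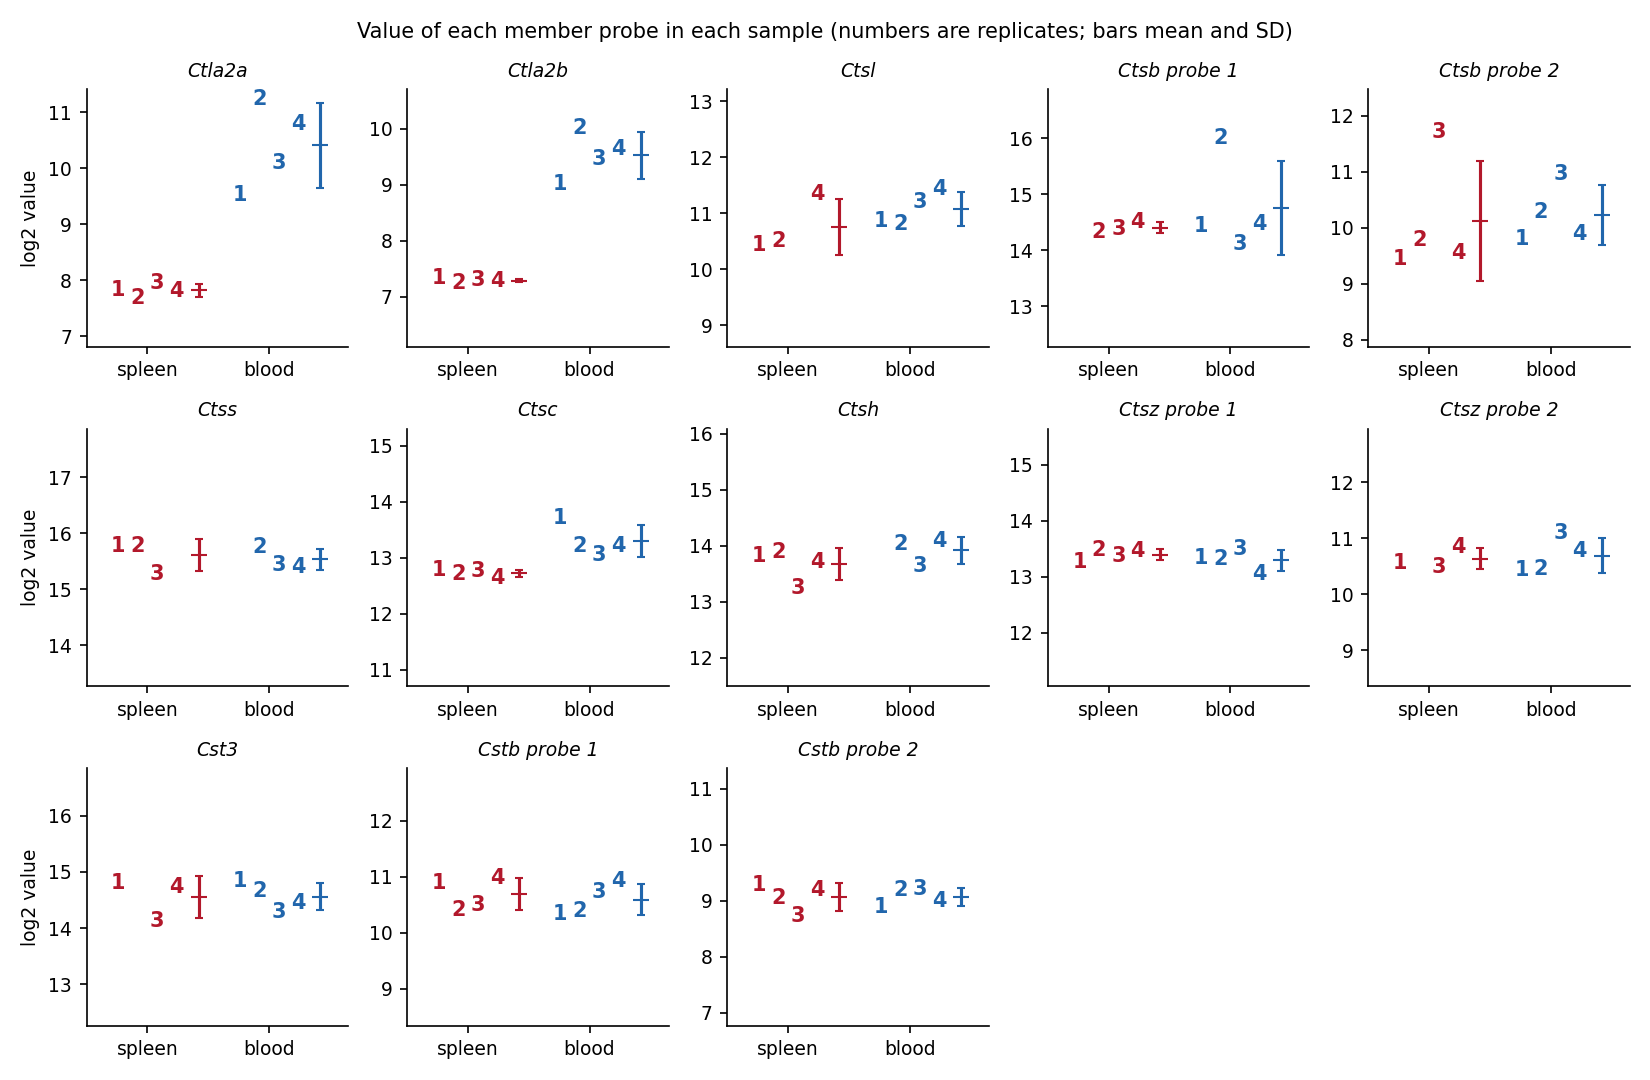
Log2 table value of each of the 13 member probes (vertical axis, the same span in each panel) in the 4 spleen and 4 blood samples, where digits are replicate numbers, horizontal ticks are means and bars are SD. The spleen readings of Ctla2a (7.69 to 7.96) and Ctla2b (7.25 to 7.33) lie below all blood readings, Ctsc shows a small gap, and the groups overlap for the other 10 probes.

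Cathepsin L, the protease whose propeptide the Ctla2 proteins resemble, had overlapping groups. Ctsl (chr13:62192273-62192332, minus strand, mm7) read 10.44, 10.52 and 11.34 in spleen samples 1, 2 and 4, against 10.86, 10.81, 11.21 and 11.44 in blood samples 1 to 4. Spleen 4 lay among the blood readings and spleen 1 and 2 lay below them. The difference was -0.31 ± 0.31 (SE, 95% interval -1.02 to 0.39).

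Cathepsin C was the only one of the 6 member cathepsins with non-overlapping groups. It removes dipeptides from the granule serine proteases and so activates them. Ctsc (chr7:84246990-84247049, plus strand, mm7) read 12.78, 12.70, 12.76 and 12.64 in spleen samples 1 to 4, against 13.70, 13.20, 13.05 and 13.21 in blood samples 1 to 4. The groups were separated by 0.27, which is less than the range of the blood readings, 0.66. Ctsc averaged 12.72 ± 0.06 in spleen and 13.29 ± 0.29 in blood (SD, n = 4 each), a difference of -0.57 ± 0.22 (SE, 95% interval -1.06 to -0.09), or 1.49-fold lower. Its direction turned to higher in spleen when all 8 scanner files took the table's place.

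Cathepsin S, which cleaves the class II invariant chain in antigen-presenting cells, had overlapping groups. Ctss (chr3:95430189-95430248, plus strand, mm7) read 15.77, 15.78 and 15.28 in spleen samples 1 to 3, against 15.75, 15.44 and 15.41 in blood samples 2 to 4. The difference was 0.08 ± 0.28 (SE, 95% interval -0.57 to 0.72), so that a change beyond 2-fold in either direction lay outside the interval. Cathepsin H, mainly an aminopeptidase, likewise had overlapping groups. Ctsh (chr9:89705043-89705102, plus strand, mm7) read 13.81, 13.89, 13.25 and 13.71 in spleen samples 1 to 4, against 14.02, 13.64 and 14.09 in blood samples 2 to 4. The difference was -0.25 ± 0.26 (SE, 95% interval -0.85 to 0.34).

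Cathepsin B, which acts both as an endopeptidase and by removing dipeptides from the end of a chain, was read by 2 probes lying 2225 bp apart. The first (chr14:58006948-58007007, plus strand, mm7) read 14.33, 14.38 and 14.51 in spleen samples 2 to 4, against 14.44, 16.00, 14.12 and 14.47 in blood samples 1 to 4. Blood 2 stood above the other 6 readings, and the difference of -0.35 ± 0.43 (SE, 95% interval -1.34 to 0.64) became 0.07 without it. The second probe (chr14:58009173-58009232, plus strand, mm7) read 9.44, 9.78, 11.71 and 9.54 in spleen samples 1 to 4, against 9.80, 10.29, 10.96 and 9.88 in blood samples 1 to 4. Spleen 3 was the highest reading of that probe, and spleen 1 and 4 were the lowest. Its difference was -0.11 ± 0.50 (SE, 95% interval -1.24 to 1.02), and without spleen 3 it was -0.64. The 2 probes did not single out the same sample, and neither interval lay within a 2-fold change.

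Cathepsin Z, a carboxypeptidase, was also read by 2 probes, both with overlapping groups. The first (chr2:174172121-174172180, minus strand, mm7) read 13.27, 13.49, 13.38 and 13.46 in spleen samples 1 to 4, against 13.33, 13.32, 13.50 and 13.05 in blood samples 1 to 4, a difference of 0.10 ± 0.20 (SE, 95% interval -0.35 to 0.55). The second (chr2:174172977-174173036, minus strand, mm7) read 10.56, 10.49 and 10.85 in spleen samples 1, 3 and 4, against 10.43, 10.45, 11.09 and 10.77 in blood samples 1 to 4, a difference of -0.05 ± 0.26 (SE, 95% interval -0.65 to 0.54). Both intervals lay within a 2-fold change.

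The cystatins also had overlapping groups. Cst3, the secreted cystatin C (chr2:148612802-148612861, minus strand, mm7), read 14.80, 14.13 and 14.73 in spleen samples 1, 3 and 4, against 14.84, 14.67, 14.28 and 14.45 in blood samples 1 to 4. Its difference was -0.01 ± 0.27 (SE, 95% interval -0.63 to 0.61). The lowest reading of each tissue was in sample 3. Cstb, the cytosolic stefin B, had 2 probes. The first (chr10:78081917-78081976, plus strand, mm7) read 10.89, 10.40, 10.50 and 10.97 in spleen samples 1 to 4, against 10.33, 10.39, 10.72 and 10.91 in blood samples 1 to 4, a difference of 0.10 ± 0.24 (SE). The second (chr10:78081549-78081608, plus strand, mm7) read 9.29, 9.06, 8.73 and 9.20 in spleen samples 1 to 4, against 8.89, 9.20, 9.21 and 9.0 in blood samples 1 to 4, a difference of -0.01 ± 0.22 (SE). All 3 cystatin intervals lay within a 2-fold change.

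**Figure D2:**
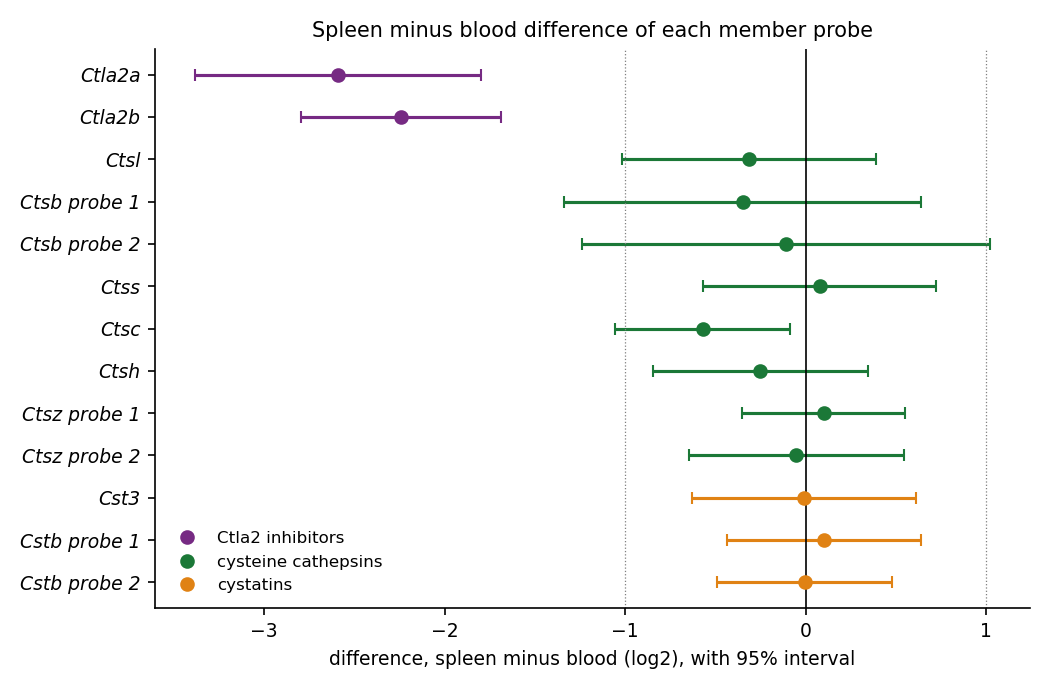
Difference of each member probe, spleen minus blood on the log2 scale (horizontal axis, points), with its 95% interval (bars) and dotted lines at a 2-fold change. The intervals of Ctla2a (-3.38 to -1.80) and Ctla2b (-2.79 to -1.69) do not reach those of the cathepsins and cystatins, whose differences run between -0.57 and 0.10.

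Over the members as a whole, 3 probes were higher and 10 lower in spleen. The groups did not overlap for 3 of 13 probes, all of them lower in spleen (Ctla2a, Ctla2b and Ctsc). Over all 25471 probes, 1.46% had every spleen value below every blood value, 1.79% had every spleen value above, and 3.25% had either. At an adjusted limma p under 0.05, 0% of all probes were called, while 1419 probes (5.57%) passed an unadjusted p under 0.05. Nothing is read from these shares about the members, since the contrast chose them. The median difference of the 8 cathepsin probes was -0.18, and that of the 11 cathepsin and cystatin probes was -0.05, against -0.01 over all probes. The interval covered 0 for 7 of the 8 cathepsin probes and lay within a 2-fold change for 4 of them.

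To set the inhibitors against the proteases within each sample, the log2 value of each cathepsin or cystatin was subtracted from that of each Ctla2 gene. The brighter probe was used for genes with 2. The spleen minus blood difference of Ctla2a lay below that of its partner in all 8 pairings, by an amount between -2.02 (with Ctsc) and -2.96 (with Ctss) on the log2 scale. For Ctla2b the same quantity ran between -1.67 (with Ctsc) and -2.49 (with Ctss). In all 16 pairings every spleen sample lay below every blood sample. For a mean over genes, each gene was centred on the midpoint of its spleen mean and its blood mean. The mean of both Ctla2 genes less that of the cathepsins was then -1.07, -1.21, -0.89 and -1.23 in spleen samples 1 to 4. In blood samples 1 to 4 it was 0.38, 1.55, 1.05 and 1.38. Blood 1 was the blood sample nearest to the spleen samples. Between 4 and 6 of the 6 cathepsins had a value in a given sample, 4 of them in blood 1, so the cathepsin means do not rest on the same genes throughout. Since Ctla2a and Ctla2b were chosen for this difference, these values carry no test.

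The scanner files give a second reading of the same probes, as log2 signal after background subtraction minus the 75th percentile of the array. On that scale Ctla2a read -1.54, -1.90, -1.63 and -1.64 in spleen samples 1 to 4, against 1.80 in blood 4, the blood file that matched its column. The 3 blood files that did not match read -0.09, -0.27 and 0.61. All 4 spleen readings were below all 4 blood files, and the spleen mean was 3.48 below blood 4 and 1.76 below the mean of the other 3 files. Ctla2b read -2.37, -2.56, -2.56 and -2.56 in spleen samples 1 to 4, against 0.71 in blood 4 and -0.53, -1.19 and -0.94 in the other 3 files. It too was lower in spleen than in every blood file. The differences from blood 4 alone were larger on this scale than the differences in the table, and the cause was not tested.

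Not all cathepsins kept 1 direction against both kinds of blood file. The 2 Ctsb probes and the first Ctsz probe were higher in spleen against both. They stood 0.27, 0.32 and 0.31 above blood 4, and 0.49, 0.02 and 0.45 above the mean of the other 3 files. Ctsc, Ctsl, Ctsh, Ctss and the second Ctsz probe changed direction. Ctsc averaged 3.88 in spleen, against 4.35 in blood 4 and 1.93 in the other 3 files, so spleen was 0.47 below the first and 1.94 above the second. Ctsl averaged 1.63 in spleen, against 2.44 in blood 4 and 0.62 in the other 3 files, which gave opposite directions as well. The first Cstb probe averaged 1.81 in spleen, against 1.95 in blood 4 and 0.11 in the other 3 files. The labels do not settle which blood arrays, those of the table or of the scanner files, belong to blood 1, 2 and 3.

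**Figure D3:**
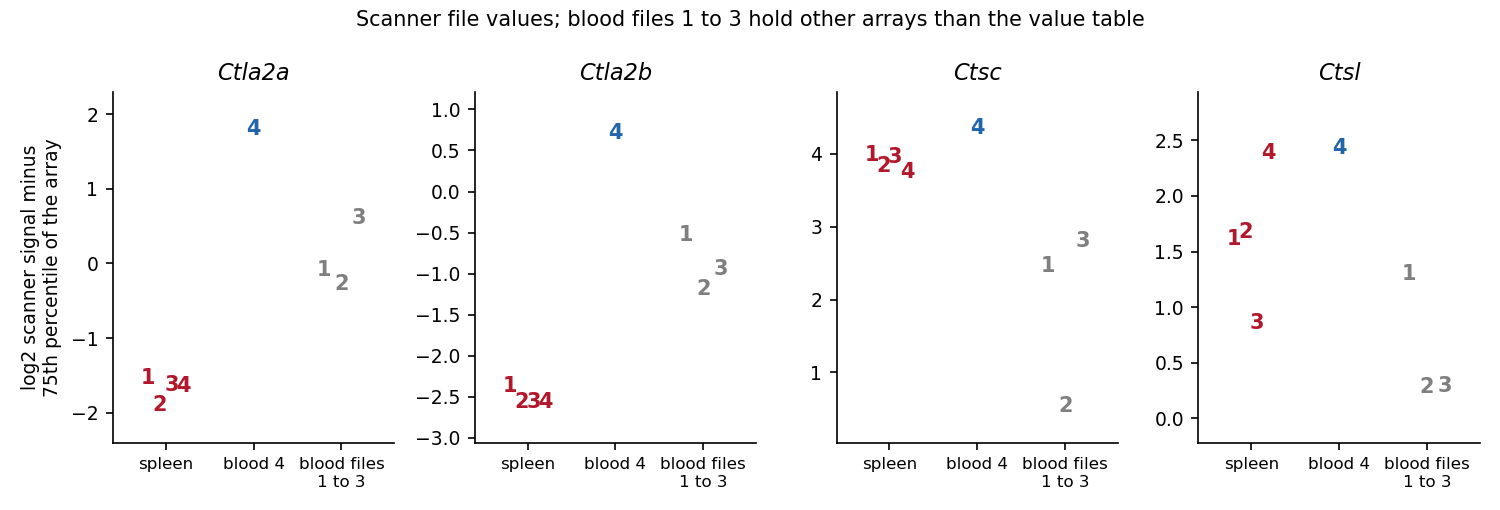
Scanner signal of 4 member probes, as log2 minus the 75th percentile of the array (vertical axis, a different span in each panel), in the 4 spleen files, the blood 4 file and the 3 blood files that do not match the value table, with digits for replicate numbers. Ctla2a and Ctla2b lie lower in the 4 spleen files than in all 4 blood files, while spleen readings of Ctsc lie below blood 4 and above the other 3.

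Slides were read from the scanner files and are known for 5 of the 8 columns. Slide 2 held spleen 4 and blood 4, both from matching files. Within it, spleen 4 minus blood 4 was -2.99 for Ctla2a, -2.36 for Ctla2b and -0.57 for Ctsc in the table. The same difference was -0.09 for Ctsl, -0.38 for Ctsh and 0.42 for the first Ctsz probe. Each is a single pair with no error. A slide term could not be fitted to the table, since the slides of blood 1, 2 and 3 are known only for scanner files that do not match it. On the scanner scale, within slide 1, spleen 3 minus the blood 1 file was -1.54 for Ctla2a and -2.03 for Ctla2b. Within slide 3, spleen 1 minus the mean of the blood 2 and blood 3 files was -1.71 for Ctla2a and -1.30 for Ctla2b. Both Ctla2 genes were thus lower in spleen within each of the 3 slides that held both tissues, while Ctsc was higher in spleen within slides 1 and 3, at 1.49 and 2.31.

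The genes nearest to the Ctla2 pair in profile were looked for among 22965 probes with a value on all 8 arrays, by the root mean square difference of centred log2 values. Ctla2b was nearest to Ctla2a, at 0.287. The next 4 for Ctla2a were E130102H24Rik at 0.576, AK030738 at 0.647, Etfbkmt at 0.649 and AK042328 at 0.654. For Ctla2b, after Ctla2a, they were Etfbkmt at 0.410, AK042328 at 0.456, Gng11 at 0.506 and TC1522673 at 0.522. Gng11, a G protein gamma subunit that is abundant in platelets, read 8.91, 9.88, 9.5 and 8.51 in spleen samples 1 to 4, against 10.73, 10.93, 10.92 and 11.48 in blood samples 1 to 4. All of these probes were lower in spleen, as the choice by likeness makes likely.

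Markers of other cells were set beside the Ctla2 result, with their part in it not tested. Of the platelet and megakaryocyte list, 13 of 17 genes passed the filter, 9 of them lower and 4 higher in spleen, with a median difference of -0.21. Of these 13, Gng11 had every spleen value below every blood value, at -1.81 ± 0.33 (SE, limma adjusted p = 0.227). The log2 of the list's summed level was 15.79 to 16.45 in spleen and 16.24 to 16.48 in blood, and the brightest genes that passed were Itgb3 and Cd9. Pf4, a chemokine of platelet granules, read 6.48, 6.74, 7.16 and 6.30 in spleen samples 1 to 4, against 6.39, 10.64, 10.07 and 10.23 in blood samples 1 to 4. In blood 1, Pf4, Ppbp (6.71) and Gp9 (6.17) were below the background level of 6.8. Ctla2a (9.52) and Ctla2b (9.01) had their lowest blood reading there, with Ctla2a 1.57 above its highest spleen reading. Unlike Pf4, Ppbp and Gp9, the list genes Itga2b (9.40), Gp1ba (9.59) and Itgb3 (16.38) had their highest reading of the 8 samples in blood 1. These 6 genes were picked after their values were seen, and the summed level of the list was 16.48 in blood 1, the highest of the 8 samples. Most of that sum is the reading of Itgb3 alone, at 16.38 there, so it says little of the other genes of the list. Without blood 1, the Ctla2a difference was -2.89 and that of Pf4 was -3.64 (limma adjusted p = 0.0172). Pf4 and Ctla2b were the 2 probes called in that setting. Over all omissions of 1 sample, the Ctla2a difference ran between -2.89 and -2.31.

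**Figure D4:**
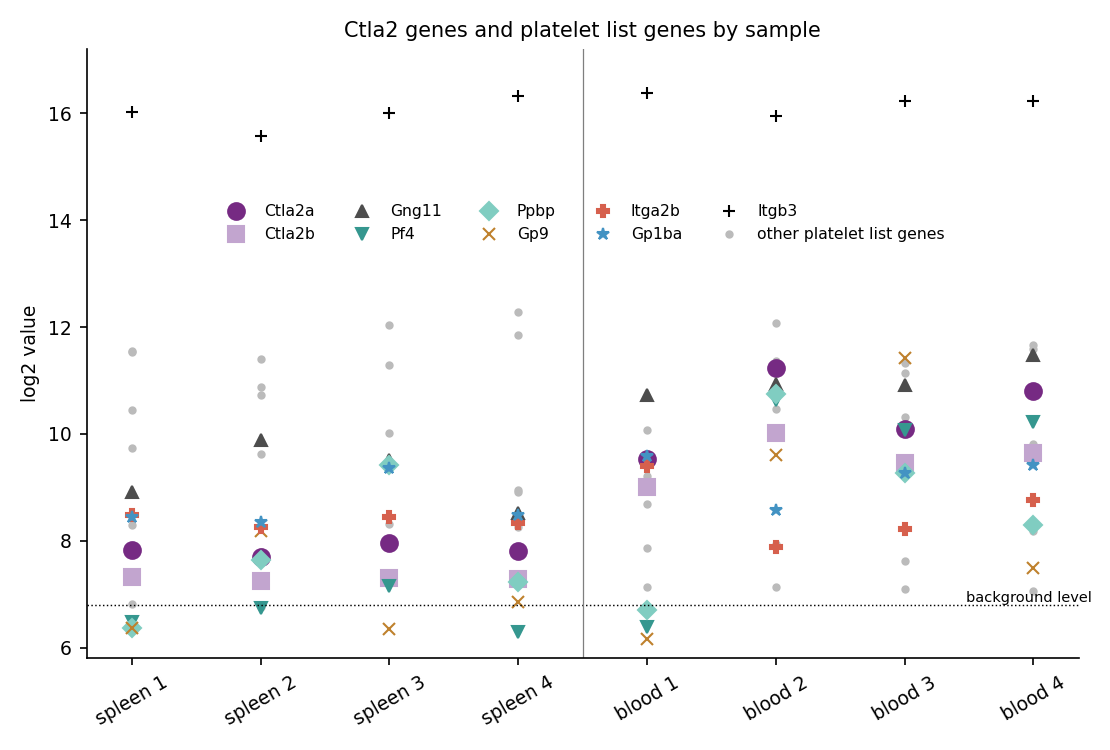
Log2 table values (vertical axis) of Ctla2a, Ctla2b and the 13 genes of the platelet list that passed the filter (7 named, the other 6 as grey dots) in each of the 4 spleen and 4 blood samples (horizontal axis), with a dotted line at the background level of 6.8. In blood 1 the values of Pf4, Ppbp and Gp9 lie below the line. Itga2b (9.40), Gp1ba (9.59) and Itgb3 (16.38) are at their highest in blood 1. Ctla2a (9.52) and Ctla2b (9.01) lie there above all their spleen values and below their other blood values.

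Ctla2 genes are also known from T cells, mast cells and vascular cells. The mast cell and basophil genes Cpa3, Ms4a2, Gata2, Mcpt8 and Kit were below the background level on all 8 arrays. The summed level of that list was 9.60 to 10 in spleen and 9.69 to 10.05 in blood, and 4 of its 9 genes passed the filter. Of these 4, Hdc, a histamine-forming enzyme, had every spleen value above every blood value, at 2.43 ± 0.67 (SE, limma adjusted p = 0.677). T cell genes gave 11.54 to 12.41 in spleen and 11.39 to 11.98 in blood, with 7 of 10 passing and Lck below the background level on all 8 arrays. NK cell genes gave 9.73 to 9.93 in spleen and 9.58 to 9.94 in blood, with 2 of 9 passing and Klrb1c and Gzma below background throughout. Endothelial genes gave 9.65 to 9.85 in spleen and 9.73 to 9.97 in blood, with 4 of 8 passing and Cdh5 and Tek below background throughout. Of these 4, the adhesion molecule Pecam1 had every spleen value below every blood value, at -0.51 ± 0.24 (SE, limma adjusted p = 0.937). Progenitor genes gave 9.95 to 10.69 in spleen and 10.02 to 11.12 in blood, with 3 of 8 passing and Kit and Gata2 below background throughout.

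By summed level, neutrophil genes were the marker list that stood farthest apart between the tissues, in the direction opposite to Ctla2a, Ctla2b and Ctsc. Of 15 genes, 11 passed the filter, 10 of them higher in spleen, and their summed level was 15.40 to 16.80 in spleen and 11.74 to 12.71 in blood. The brightest of those that passed were S100a8 and Camp, while S100a9 and Ngp were bright but had too few values. Neutrophil precursors make cathepsin C and its substrates, so these values stand beside every cathepsin value above. Red pulp macrophage genes, which mark a cell rich in lysosomes, gave 13.75 to 14.15 in spleen and 13.52 to 14.07 in blood, with 9 of 10 passing, 8 of them higher in spleen. Of these, 3 had every spleen value above every blood value: Vcam1 at 2.31 ± 0.37, Slc40a1 at 2.17 ± 0.35 and Spic at 1.48 ± 0.43 (SE, with limma adjusted p-values of 0.162, 0.198 and 0.687). Dendritic cell genes gave 11.55 to 12.01 in spleen and 11.31 to 11.99 in blood, with 6 of 8 passing, 4 of them higher, and the integrin Itgax had every spleen value above every blood value, at 1.80 ± 0.48 (SE, limma adjusted p = 0.613). B cell genes gave 10.07 to 10.84 in spleen and 10.09 to 10.33 in blood, with 6 of 10 passing. The part of these cells in the cathepsin and lysosomal values was not tested.

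The neighbours of the Ctla2 genes on chromosome 13 that passed the filter did not share their difference. Within 1000000 bp on mm7 there were 22 other probes for 18 genes, among them placental cathepsins and the trophoblast genes Tpbpa and Tpbpb, and 7 probes passed the filter. Of these 7, 4 were lower and 3 higher in spleen, with a median of -0.10 and a range of -0.78 (Dapk1) to 0.28 (A030007L22). None was called by limma and the groups overlapped for all 7. Most neighbouring probes, among them those of Tpbpa, Tpbpb, Ctsj and Ctsq near the pair, did not pass and could not be compared.

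The other genes of the pathway were 96 genes in 8 lists, of which 94 were on the array and 69 passed the filter. Of these, 37 were higher and 32 lower in spleen, with a median difference of 0.05 against -0.01 over all probes. None passed the adjusted threshold, with a smallest adjusted limma p of 0.566. At an unadjusted limma p under 0.05 there were 4 higher and 1 lower genes, together 7.25% of 69. Among all probes 5.57% passed in either direction, 3.01% higher and 2.56% lower. All spleen values lay below all blood values for Ctsa and Fuca1 and above them for Cd63 and Igf2r.

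Further cysteine proteases and their inhibitors showed small differences. Ctsw was at 0.33, the asparaginyl endopeptidase Lgmn at 0.00, Ctso at -0.13 and Ctsf at -0.18, while Ctsk did not pass the filter. Of 10 placental cathepsin and trophoblast genes only Ctsm passed, at -0.21, and 6 were below the background level on all 8 arrays. Among the cathepsins that are not cysteine proteases, the serine protease Ctsg was at 0.58, the aspartic proteases Ctsd and Ctse at -0.04 and -0.26, and the carboxypeptidase Ctsa at -0.40 ± 0.20 (SE, limma adjusted p = 0.945). Of 14 other cystatins and stefins, 3 passed the filter: Stfa2l1 at 0.34, Stfa3 at 0.34 and Stfa1 at -0.05. These stefins were within 2 log2 units of the background level on every array.

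Lysosomal genes outside the protease families were spread to both sides. Of 26 hydrolases and activators, 25 passed, 14 higher and 11 lower, with a median of 0.05. The highest were the galactosidase Glb1 at 1.0 ± 0.38 (SE, limma adjusted p = 0.802) and the acid phosphatase Acp2 at 0.93 ± 0.32 (SE, limma adjusted p = 0.749). The lowest were the galactosidase Gla at -0.68 and the fucosidase Fuca1 at -0.51 ± 0.21 (SE, limma adjusted p = 0.864). All 22 genes of lysosomal membrane and sorting passed, 10 higher and 12 lower, with a median of -0.06. Igf2r, the receptor that carries mannose 6-phosphate-tagged enzymes to the lysosome, read 8.62, 7.56, 10.38 and 9.20 in spleen samples 1 to 4, against 6.61, 7.31, 7.36 and 6.63 in blood samples 1 to 4. Its difference was 1.97 ± 0.53 (SE, limma adjusted p = 0.615), and that of the tetraspanin Cd63 was 1.66 ± 0.43 (SE, limma adjusted p = 0.566). The lowest were Gnptab at -0.60, part of the enzyme that makes the tag, and Tfeb at -0.32, a regulator of lysosomal genes.

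Class II presentation genes and granule serine protease genes gave no call. Of 7 class II presentation genes, 6 passed, 5 higher and 1 lower, with H2-Eb1 at 0.55 and H2-Ab1 at 0.47 at the top and H2-DMb1 at 0.29 and H2-DMa at -0.30 at the bottom. Cd74, the invariant chain that cathepsin S cleaves, had too few values to be kept. Of 9 granule serine proteases that cathepsin C activates, 5 passed: Ctsg at 0.58, Elane at 0.56, Prtn3 at 0.13, Mcpt4 at 0.08 and Cma1 at -0.19. Gzma, Gzmb, Gzmc and Gzmk were below the background level on all 8 arrays.

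**Figure D5:**
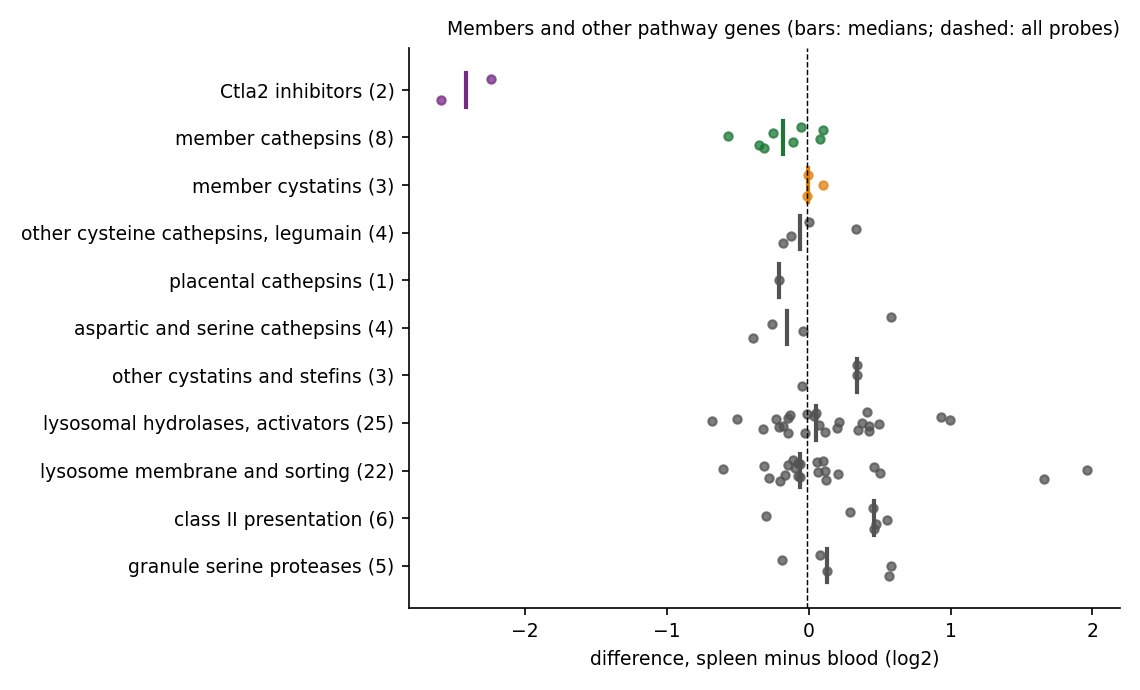
Difference, spleen minus blood on the log2 scale (horizontal axis), of each member probe and of each other pathway gene that passed the filter (points, 1 row per list, number of points in brackets), with list medians as bars and the median of all probes as a dashed line. The 2 Ctla2 genes lie below -2, the member cathepsins and cystatins lie between -0.57 and 0.10, and Cd63 (1.66) and Igf2r (1.97) are the points farthest to the right.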

How the data were processed

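RNA of sorted spleen and blood monocytes was measured on 1-colour Agilent arrays, 8 in all. Per the file headers, the scanner files hold spot intensity values from Feature Extraction 9.5.1.1, with local background subtracted. The deposited table holds the authors' log2 values. The submitters' processing notes list limma (version not given in the sources). From ranks and equal column medians, the table was read as median spot signals, quantile normalized with the background left in, which is an inference.

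Probes at or above 6.8 on at least 4 of 8 arrays, with at least 3 values per tissue, were fitted with limma 3.58.1 in R 4.3.3 (lmFit and plain eBayes, Benjamini-Hochberg over 25471 probes). The fit was tested on simulated data. Probes were named in the scanner files, and 22951 of 41174 by a RefSeq accession. For genes outside the members the brightest kept probe was used. Summed levels are log2 of summed linear values over genes with a value on all 8 arrays, those that did not pass the filter included. Named outside the members were the 2 highest and 2 lowest genes of each list, any gene called, and the 5 nearest profiles of each Ctla2 gene. Genes whose groups did not overlap, those with the smallest unadjusted p, marker genes below background or with too few values, and the platelet genes Pf4, Ppbp, Gp9, Itga2b and Gp1ba were added after their values were seen. The members and lists were chosen with earlier results of these data known. Alternatives were other filters, probe rules, variance models, omitted samples, a replicate block and the scanner files.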

Additional observations from a re-analysis of the deposited data

Results flagged for a closer look

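The second Ctsb probe in spleen 3 read 11.71, against 9.44 to 9.78 in the other 3 spleen samples, and its distance from the nearest of them was 0.851 of the whole range of the group, which passes Dixon's 95% limit for 4 samples. The scanner file gave the same picture, with 2.79 for spleen 3 and 0.17 to 0.74 for the other 3. The first Ctsb probe read 14.38 in spleen 3, between 14.33 and 14.51 in spleen 2 and spleen 4. Of 19 groups of 4 member values, 1 was picked out in this way, and chance picks out about 1 in 20. The cause was not tested.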

How the results depend on the processing

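Ctla2a and Ctla2b were lower in spleen under all 21 other settings, but not all of these could move the differences. Each gene had 1 probe with all 8 values. The replicate blocks, the probe rules, the other filters and the trend and robust variance therefore left both differences exactly as they were. Leaving out 1 sample gave -2.89 to -2.31 for Ctla2a and -2.41 to -2.08 for Ctla2b. The scanner files with normexp gave -1.75 and -1.39, and the 5 matching scanner files gave -3.48 and -3.22. The cathepsin and cystatin median, -0.05, was -0.14 to 0.04 on leaving out 1 sample, 0.56 with all 8 scanner files at the 75th percentile and 0.52 with normexp. With either use of all 8 scanner files, Ctsc, Ctsl, Ctsh, Cst3, both Ctsb probes and the second Cstb probe turned to higher in spleen. The pathway median, 0.05, was -0.01 to 0.08 on leaving out 1 sample, 0.29 with the scanner files, 0.19 with normexp, 0.14 with the 5 matching scanner files and 0.15 with their 5 table columns, and no pathway gene was called under any of 20 settings. Over all probes, 0 calls became 0 to 3 on leaving out 1 sample. They became 7 with the mean over probes, 9 with a trend and robust variance, and 5 with either use of all 8 scanner files. A replicate block gave 1 call as a fixed term and 7 as a random term (correlation 0.172), with differences of -2.59 for Ctla2a and -2.24 for Ctla2b in both. Ctla2b was among the probes called under 4 of these settings: without blood 1, with the random block, with the mean over probes and with a trend and robust variance. That is no test of it, since this contrast chose it. Same-numbered samples deviated together with correlations of 0.0719 to 0.119, and every sample correlated best with its own number. The numbers were still not taken as pairs, since no label says that an equal number means the same mouse. The causes of these shifts were not tested. Dim signal limits Ctla2b in spleen most.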
